A study of Mus musculus with 6 samples.

Results

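A set of 8 genes of the chemokine receptor family were followed by symbol: Cx3cr1, Ccr1, Ccr2, Ccr6, Ccrl2, Cxcr2, Cxcr3 and Cxcr4. They are 8 of the 35237 genes in the Cufflinks table and 8 of the 36536 in the ALEXA-Seq table. The study compared monocytes of the bone marrow with microglia of the brainstem in C57BL/6 mice at 6 weeks of age. BMDM (CD11b+ CD45high CD115+ Ly6G-) and BSM (CD11b+ CD45low CD115low Ly6G-) were each sorted by flow cytometry and sequenced as 3 libraries, and each library was made from the pooled cells of several mice. Per the labels, replicate 1 of each cell type came from males and replicates 2 and 3 from females, so sex cannot be told apart from the library within a group. The labels name no transgene and no treatment of the mice, and both tissues were dissociated and passed over a Percoll gradient before the sort.

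Chemokine receptors are membrane proteins with a bundle of transmembrane helices that bind small secreted chemokines and signal through inhibitory G proteins to integrins and the actin cytoskeleton. Leukocytes read gradients of these ligands to leave the marrow, to stay in it or to enter tissue. Cx3cr1 binds fractalkine and is known from microglia and patrolling monocytes, Ccr2 from inflammatory monocytes, Cxcr4 from the retention of cells in the marrow and Cxcr2 from neutrophils.

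Ccr2, Cxcr4 and Cx3cr1 carried nearly all of the receptor expression described below, and the sequence around the start of each is shown for that reason. Each window runs from 250 bases before to 50 bases after the start in RefSeq on GRCm38.p6, read 5′ to 3′ on the strand of the gene. Capitals mark TATAAA, the TATA box letters, on either strand. The Cx3cr1 window is chr9:120068247-120068546 on the minus strand, that of Ccr2 is chr9:124101933-124102232 on the plus strand and that of Cxcr4 is chr1:128592250-128592549 on the minus strand.
Cx3cr1: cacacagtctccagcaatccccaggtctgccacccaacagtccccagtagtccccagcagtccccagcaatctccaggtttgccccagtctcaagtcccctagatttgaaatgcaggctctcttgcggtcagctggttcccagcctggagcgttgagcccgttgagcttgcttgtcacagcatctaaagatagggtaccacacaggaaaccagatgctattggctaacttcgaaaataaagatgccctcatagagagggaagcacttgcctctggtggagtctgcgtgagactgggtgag
Ccr2: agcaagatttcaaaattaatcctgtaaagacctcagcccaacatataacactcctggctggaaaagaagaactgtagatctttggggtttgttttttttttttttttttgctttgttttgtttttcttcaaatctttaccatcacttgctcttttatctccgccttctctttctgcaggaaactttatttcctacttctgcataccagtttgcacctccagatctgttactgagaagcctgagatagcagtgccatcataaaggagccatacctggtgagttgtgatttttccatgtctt
Cxcr4: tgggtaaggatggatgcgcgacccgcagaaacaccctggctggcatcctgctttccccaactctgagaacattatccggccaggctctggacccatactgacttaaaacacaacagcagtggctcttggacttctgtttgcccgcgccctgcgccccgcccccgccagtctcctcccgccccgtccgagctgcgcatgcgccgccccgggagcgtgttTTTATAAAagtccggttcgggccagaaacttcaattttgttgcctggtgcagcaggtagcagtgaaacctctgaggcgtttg

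TATAAA was found on both strands of the Cxcr4 window, in matches that overlap and whose first bases lie at -32 and -30 from the start, and it was not found in the other 7 genes' windows. Of all 32851 RefSeq windows of this length, 13.6% held it. GAGGAA, letters within the PU.1 motif, was found on either strand in a window of Ccr1, Ccr6, Cxcr2 and Cxcr3 and in 28.3% of all windows. These matches describe letters only.

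The 8 genes share only part of their sequence. The best matched pair of coding sequences in GENCODE M21 was Ccr1 and Ccr2, with 67.7% identical bases over their alignment, and the least matched was Ccr2 and Cxcr3, with 60.9%. No coding base of any of the 8 had a copy of at least 95% identity over 100 bases in the transcript of another gene, although 7.03% of the longest Cxcr2 transcript, outside its coding part, did. No other gene in the Cufflinks table overlapped any of them. In mm9, the build of the tables, Ccrl2, Cx3cr1, Ccr1 and Ccr2 lie on chromosome 9, Cxcr2 and Cxcr4 on chromosome 1, Ccr6 on chromosome 17 and Cxcr3 on chromosome X.

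Expression was given by the authors as FPKM, a fragment count scaled to transcript length and to the mapped reads of the library. Levels of different genes were set side by side on this scale, and how well it holds between genes was not tested. Summed over genes, BMDM libraries held 163198.7 to 194184.2 FPKM and BSM libraries 68287.8 to 75021.4, a 2.50-fold difference of the means. BSM replicate 1 had 472 of the 6364 tested genes at 0, against 51 to 115 in each of the others. The study's RNA quality sheet gives it the lowest RNA concentration of the 6 and an RNA integrity far below that of the others. The part of RNA quality in the results was not tested. Without this library the log2 difference (BMDM over BSM) was -3.38 for Cx3cr1, 6.79 for Ccr2 and 6.32 for Cxcr4, and none of the 8 receptors changed its call. The median log2 fold change over these 6364 genes was 0.81 towards BMDM, so fold changes are also given relative to it. Ccr1 and Ccrl2 were tested among 9637 genes, and their fold changes are given relative to the median of those, 0.58. In bulk samples, fewer cells of a type and less RNA per cell cannot be told apart. The labels held against their markers: 8 of 8 microglia markers were higher in BSM, with a summed FPKM of 10.95 to 12.39 in BMDM and 730 to 812 in BSM. Of 6 monocyte markers, 5 were higher in BMDM, Ccr2 itself among them, and Csf1r, which encodes CD115, was higher in BSM.

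The order of the receptors by FPKM differed between the cell types. In BMDM, Ccr2 was highest, then Cxcr4, then Cx3cr1, and the ranges of these 3 over the libraries did not overlap each other or the range of Ccr1, the next. Ccr1, Cxcr2 and Ccrl2 followed, each overlapping its neighbour, and Cxcr3 and Ccr6 were at or near 0. In BSM, Cx3cr1 was 84.3-fold above Ccrl2, the second, and Ccrl2 lay above Ccr1 in every library. From Ccr1 downwards, through Ccr2, Cxcr4, Ccr6 and Cxcr2 to Cxcr3, each range overlapped the next. By ALEXA-Seq values, the BMDM ranges of Ccr2 (2242 to 2551) and Cxcr4 (1574 to 3027) did overlap.

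**Figure D1:**
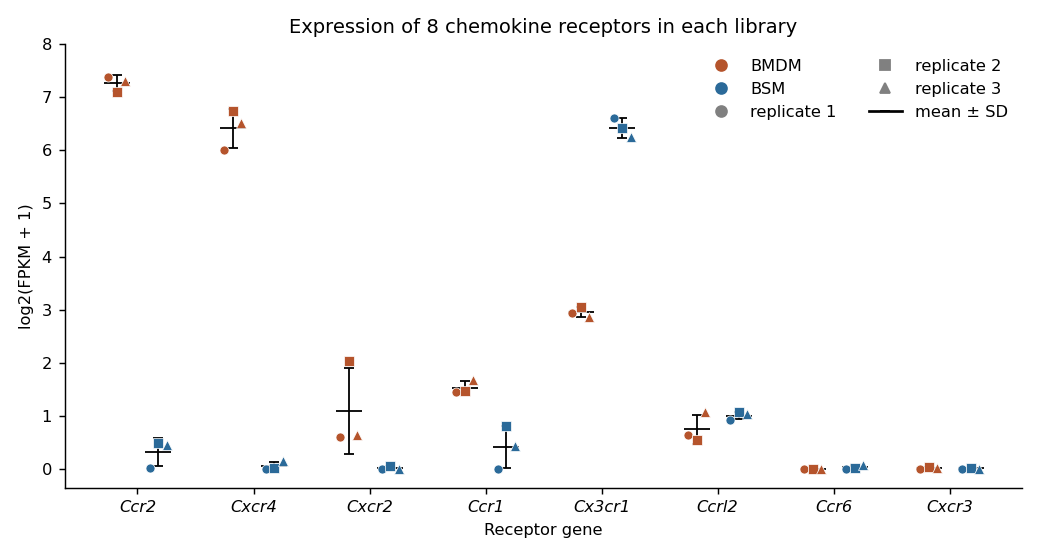
Log2(FPKM + 1) of each of the 8 receptors in the 3 BMDM libraries (orange) and the 3 BSM libraries (blue), with one symbol per replicate and bars for the mean ± SD over 3 libraries. Ccr2 and Cxcr4 are high in BMDM and near 0 in BSM, Cx3cr1 is high in BSM and lower but present in BMDM, and Ccr6 and Cxcr3 lie near 0 in all 6 libraries.

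As a share of the 8-receptor sum, which multiplying a library by a constant cannot change, Ccr2 took 69.6%, 53.6% and 61.2% of the FPKM in BMDM replicates 1, 2 and 3. Cxcr4 took 26.4%, 41.5% and 34.9%, and Cx3cr1 took 2.79%, 2.87% and 2.44%. In the BSM replicates, Cx3cr1 took 99.1%, 97.3% and 97.5%. A pair of receptors thus made up nearly all of this sum in BMDM, and a single one did in BSM. These shares hold for the 8 chosen genes only: Cmklr1, a receptor gene outside them, was at 13.2, 12.5 and 11.98 FPKM in the BSM replicates. The means were 61.4% ± 8.02 (SD, n = 3) for Ccr2 and 34.3% ± 7.53 (SD, n = 3) for Cxcr4 in BMDM, and 97.9% ± 0.975 (SD, n = 3) for Cx3cr1 in BSM. In the ALEXA-Seq table, made from the same libraries and with a scaling between genes that is not given in the sources used here, the mean shares in BMDM were 49.6% for Ccr2 and 45.7% for Cxcr4, and Cxcr4 exceeded Ccr2 in BMDM replicate 2 (54.4% against 40.3%). The order of Ccr2 and Cxcr4 in that library therefore differed between the tables. The sum itself was 250 ± 10.3 FPKM (SD, n = 3) in BMDM and 87.2 ± 10.6 FPKM (SD, n = 3) in BSM.

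**Figure D2:**
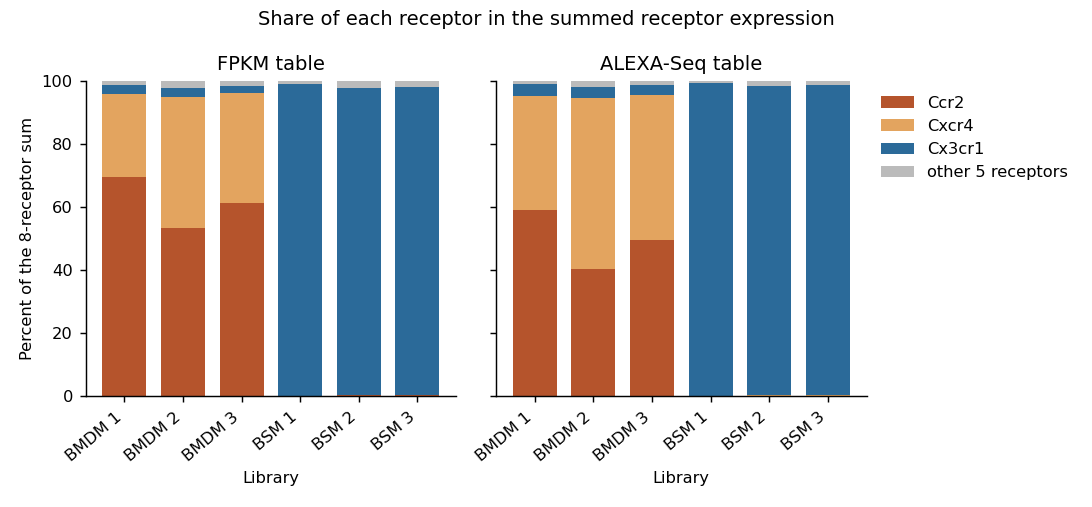
Percent of the 8-receptor sum taken by Ccr2, Cxcr4, Cx3cr1 and the other 5 receptors in each library, in the FPKM table (left) and the ALEXA-Seq table (right). Ccr2 and Cxcr4 fill most of each BMDM bar, with a larger Cxcr4 part in BMDM replicate 2, and Cx3cr1 fills at least 97.3% of each BSM bar.

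To ask which receptors distinguish the cell types, log2(FPKM + 1) was compared between BMDM and BSM with limma and Benjamini-Hochberg adjustment. When every gene with a value above 0 in any library was tested, 4 of the 8 receptors had an adjusted p-value under 0.05, where 18.3% of all 21167 genes did. Of these, 3 were higher in BMDM (Ccr2, Cxcr4 and Ccr1), against 14.9% of all genes, and Cx3cr1 was higher in BSM, against 3.36%. The libraries of the groups did not overlap for 5 of the 8, against 37.4% of all genes. A stricter comparison kept the 6364 genes that reached 3 FPKM in any library, and 54.5% of them were called, 45.3% with the higher level in BMDM and 9.22% with the higher level in BSM. Only Cx3cr1, Ccr2, Cxcr4 and Cxcr2 entered it, the last 3 through BMDM alone, so their number called is no support for a difference of the family. Ccr1 and Ccrl2 were tested with a minimum of 1, at which 44.9% of 9637 genes were called. Ccr1 reached it through BMDM alone, so its call there has the same limit. Of the ALEXA-Seq genes, 47.9% of the 6364 with the highest values were called, and 31.4% when 12728 genes were tested. Ccr2, Cxcr4, Cxcr2 and Ccr1 had their highest ALEXA-Seq values in BMDM, so their number called there has the same limit. P-values measure the spread between these pools of cells.

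Cx3cr1, the receptor of fractalkine, was expressed at 6.64, 7.29 and 6.29 FPKM in BMDM replicates 1, 2 and 3 and at 97.0, 84.7 and 74.7 in the BSM replicates. Every BSM library lay above every BMDM library. The mean was 12.7-fold higher in BSM and stayed between 11.8-fold and 13.5-fold when any 1 library was left out. On the log2 scale the difference between BMDM and BSM was -3.48 ± 0.22 (SE), or -4.28 relative to the median gene, and passed the test (limma, adjusted p = 1.73e-05). Cx3cr1 was not at 0 in BMDM: it exceeded 80.9% to 84.7% of the expressed genes there, and 99.2% to 99.5% of those in BSM. The ALEXA-Seq values were 156, 181 and 147 in BMDM and 3353, 2323 and 2048 in BSM, with a log2 difference of -3.96 ± 0.23 (SE; limma, adjusted p = 6.08e-05). Cx3cl1, which encodes fractalkine, was listed at 0 in 5 libraries and at 0.00306 FPKM in BSM replicate 3.

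Ccr2, the receptor that draws monocytes out of the marrow and into inflamed tissue, was expressed at 166, 136 and 158 FPKM in BMDM and at 0.0129, 0.408 and 0.366 in BSM. The BSM libraries were at traces, and the lowest of them, replicate 1, was also the library with the most genes at 0. The log2 difference was 6.94 ± 0.24 (SE; limma, adjusted p = 2.42e-06), or 6.14 relative to the median gene, and Ccr2 ranked 8 by p-value among the 6364 genes. The ratio of the means was 584, but it rests on the BSM traces and moved between 396 without BSM replicate 1 and 808 without BSM replicate 2. In the ALEXA-Seq table Ccr2 was at 2551, 2242 and 2389 in BMDM and at 0.0390, 6.91 and 6.18 in BSM, a log2 difference of 9.26 ± 0.76 (SE; limma, adjusted p = 0.000161). Both tables thus gave a call in the same direction, and the larger log2 value in the ALEXA-Seq table goes with a pseudocount of 1 that is small beside its values. Among the ligands that Ccr2 binds, Ccl2 was at 1.68, 1.40 and 3.68 FPKM in BMDM and 5.95, 2.67 and 2.67 in BSM, and its groups overlapped. Ccl12 was listed at 0 in BMDM and was at 0.949, 3.27 and 2.02 in BSM. Ccl7 reached at most 0.617 FPKM, in BSM replicate 2, and Ccl8 was at 0 in every library.

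Cx3cr1 and Ccr2 differed in opposite directions in the tests above, and their ratio within each library sets the 2 side by side. The log2 ratio of Cx3cr1 to Ccr2, each with 1 FPKM added, was -4.45, -4.05 and -4.45 in BMDM and 6.60, 5.93 and 5.79 in BSM. The means, -4.31 ± 0.23 (SD, n = 3) and 6.10 ± 0.43 (SD, n = 3), differed by 10.42. The exact permutation test gave a two-sided p of 0.1, which is the smallest that 3 libraries against 3 can give. Each gene already separated the groups, in opposite directions, so this outcome was fixed and adds no support.

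Cxcr4, which binds Cxcl12 and holds cells in the marrow, was expressed at 63.0, 105 and 89.8 FPKM in BMDM, and in BSM it was at 0, 0.0190 and 0.110. Every BMDM library exceeded 98.7% to 99.1% of the expressed genes, and BSM replicate 1 listed Cxcr4 at 0. The log2 difference was 6.35 ± 0.26 (SE; limma, adjusted p = 2.91e-06), or 5.55 relative to the median gene. The ratio of the means was 2001, and without BSM replicate 3 it was 9034, so it is set by traces in 1 library. In the ALEXA-Seq table the BMDM values were 1574, 3027 and 2225 and the BSM values 0, 0.777 and 1.18, a log2 difference of 10.45 ± 0.41 (SE; limma, adjusted p = 1.91e-05). Within BMDM, Cxcr4 was highest in replicate 2, the library in which Ccr2 was lowest. Its ligand Cxcl12 was at 0.0541, 0 and 0.0672 FPKM in BMDM and at 1.38, 0.0190 and 0.00974 in BSM, so that only BSM replicate 1 stood above the traces. Mif, a cytokine that also binds Cxcr4, was at most 0.681 FPKM in any library.

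Cxcr2, the receptor through which neutrophils follow Cxcl1 and Cxcl2, was at 0.512, 3.10 and 0.569 FPKM in BMDM and at 0, 0.0448 and 0.00402 in BSM. BMDM replicate 2 was 5.73 times the mean of the other two BMDM libraries, and it alone took Cxcr2 past the minimum of 3. The log2 difference of 1.07 ± 0.46 (SE), or 0.265 relative to the median gene, did not pass the test (limma, adjusted p = 0.0829), although the groups did not overlap. Nor did it pass with quantile normalization (0.59, adjusted p = 0.290), upper quartile scaling (0.86, adjusted p = 0.0829) or equal sums (0.75, adjusted p = 0.132). Without BMDM replicate 2 the difference fell to 0.60 and passed (limma, adjusted p = 0.0156). Genes were chosen with all 6 libraries, so Cxcr2 stayed in this test only through the library left out. That pass is therefore no support for a difference. The difference also passed with a pseudocount of 0.1 (3.26, limma, adjusted p = 0.0126) and in the ALEXA-Seq table (4.20 ± 0.85 SE, limma, adjusted p = 0.00726). There Cxcr2 was at 12.3, 77.8 and 13.8 in BMDM and 0, 1.27 and 0.107 in BSM. Of its ligands, Ppbp was at 0.663, 0.502 and 6.50 FPKM in BMDM, Cxcl2 at most 0.609, Cxcl1 and Cxcl5 at most 0.0424 and 0.0224, and Cxcl3 at 0 throughout.

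Markers of granulocytes moved with Cxcr2. All 14 of the list were highest in BMDM replicate 2, and their summed FPKM was 80.3, 564 and 126 in the BMDM replicates and 0 to 0.123 in BSM. Over the mean of replicates 1 and 3, BMDM replicate 2 was 26.2 times higher for Ngp, 11.6 times for S100a9, 9.91 times for Ltf and 3.63 times for Mpo, but 1.04 times for Mmp8. Ly6g, the marker against which the cells were sorted, was at 0.293 FPKM in BMDM replicate 2 and at 0 in the other 5 libraries. All 7 erythroid markers were also highest in BMDM replicate 2, with a summed FPKM of 119 against 27.9 and 19.1 in replicates 1 and 3. That library had the largest FPKM sum over all genes, and 22 of the 39 signalling genes described below were highest there, as was 1 of the 6 monocyte markers. The share of all genes that were highest there was not counted. Ccr2 instead had its lowest BMDM value in replicate 2, and Cx3cr1, although highest there, was only 1.16 times its lowest BMDM value. Cxcr4 was also highest there, at 105 FPKM against 63.0 and 89.8 in replicates 1 and 3. The study lists this library with the fewest sorted cells and the lowest percentage of reads mapped. Whether other cells were present in it, and their part in the level of Cxcr2, was not tested.

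**Figure D3:**
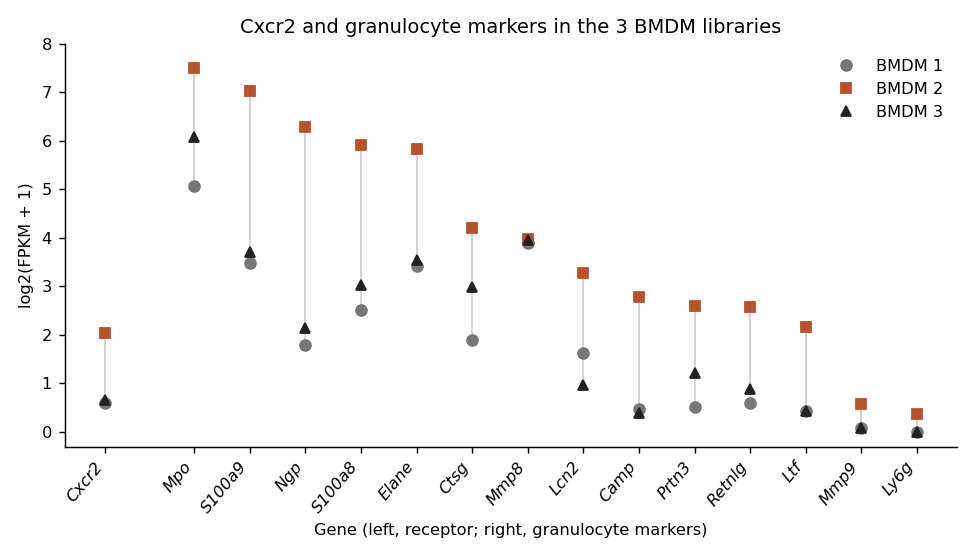
Log2(FPKM + 1) of Cxcr2 (left) and of 14 granulocyte markers (right) in the 3 BMDM libraries, one symbol per library. BMDM replicate 2 (orange squares) is the highest for Cxcr2 and for each of the 14 markers, while Mmp8 differs little between the libraries (1.04 times).

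Ccr1, which binds several inflammatory CC chemokines, was at 1.74, 1.76 and 2.21 FPKM in BMDM and at 0, 0.746 and 0.360 in BSM. The BMDM libraries differed by at most 1.27-fold among themselves and lay above all BSM libraries. The means were 1.91 ± 0.266 (SD, n = 3) and 0.369 ± 0.373 (SD, n = 3). Ccr1 never reached the minimum of 3, and it reached a minimum of 1 in BMDM alone. With a minimum of 1 its log2 difference was 1.12 ± 0.26 (SE; limma, adjusted p = 0.0106), or 0.54 relative to the median gene of that comparison. With no minimum the adjusted p-value was 0.0371 (limma). The call with a minimum of 1 was lost when libraries were scaled to the same upper quartile (0.78, adjusted p = 0.104) or the same sum (0.56, adjusted p = 0.201). In the ALEXA-Seq table Ccr1 was at 23.3, 24.3 and 28.4 in BMDM and 0, 9.86 and 4.83 in BSM, and among 12728 genes it passed (2.72 ± 0.85 SE, limma, adjusted p = 0.0483).

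Of the ligands that Ccr1 binds, Ccl6 and Ccl9 were also higher in BMDM. Ccl6 was at 50.4, 75.1 and 56.2 FPKM in BMDM and 5.65, 5.92 and 6.68 in BSM, a log2 difference of 3.10 ± 0.24 (SE; limma, adjusted p = 4.14e-05). Ccl9 was at 28.9, 42.2 and 31.1 in BMDM and 4.89, 4.53 and 3.69 in BSM, a difference of 2.70 ± 0.24 (SE; limma, adjusted p = 9.77e-05). Ccl3 lay the other way, at 5.53, 11.6 and 8.81 FPKM in BMDM and 11.3, 18.5 and 16.1 in BSM, with overlapping libraries and a difference that did not pass (-0.78, limma, adjusted p = 0.0681). Ccl3 passed in 8 of 17 alternatives, among them quantile normalization (-1.54, adjusted p = 0.00461), upper quartile scaling (-1.40, adjusted p = 0.0258), equal sums (-1.98, adjusted p = 0.00144), leaving out BMDM replicate 2 (-0.998, adjusted p = 0.0482) or BSM replicate 1 (-0.97, adjusted p = 0.0274) and the ALEXA-Seq table (-0.92, adjusted p = 0.0490), although not with 12728 ALEXA-Seq genes (adjusted p = 0.0682). Ccl5 was at most 0.685 FPKM.

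Ccrl2, an atypical receptor that binds chemerin without G protein signalling, was at 0.555, 0.457 and 1.09 FPKM in BMDM and at 0.903, 1.10 and 1.04 in BSM. Beside Cx3cr1, it was the only one of the 8 above 0.4 FPKM in every library. BMDM replicate 3 fell within the BSM range. The log2 difference of -0.26 ± 0.23 (SE) did not pass with a minimum of 1 (limma, adjusted p = 0.379). Relative to the median gene of that comparison it was -0.84. With quantile normalization it was -0.73 (adjusted p = 0.0269) and with equal sums -0.85 (adjusted p = 0.0208), so the call depends on the scaling. The ALEXA-Seq values were 9.17, 7.60 and 17.95 in BMDM and 18.5, 22.2 and 19.7 in BSM, where the groups did not overlap and the difference did not pass (-0.83 ± 0.42 SE, limma, adjusted p = 0.175). Rarres2, which encodes chemerin, was at 0.0248 FPKM in BMDM replicate 2 and at 0 elsewhere, and Ccl19 was at 0 in every library.

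Ccr6 and Cxcr3, known from lymphocytes and dendritic cells, were at or near 0. Ccr6 was listed at 0 in all BMDM libraries and in BSM replicate 1, and at 0.0130 and 0.0600 FPKM in BSM replicates 2 and 3. Cxcr3 was at 0, 0.0338 and 0.0141 FPKM in BMDM and 0, 0.0213 and 0.00671 in BSM. Neither passed the test with no minimum (limma, adjusted p = 0.372 and 0.701), and a difference between traces was not detectable here. Lymphocyte markers were low as well, with 14 of them summing to 0.856, 9.28 and 2.78 FPKM in the BMDM replicates and 0.317 to 0.707 in BSM. Ccl20, the ligand of Ccr6, was at 0 throughout. Of the ligands of Cxcr3, Cxcl10 was at 1.58, 2.11 and 1.28 FPKM in BMDM and at most 0.382 in BSM (1.24 ± 0.24 SE, limma with a minimum of 1, adjusted p = 0.00466). Cxcl10 reached that minimum in BMDM alone, and with no minimum the adjusted p-value was 0.0197 (limma). Cxcl9 was at most 2.90 FPKM, in BMDM replicate 2, and Cxcl11 was at 0.

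**Figure D4:**
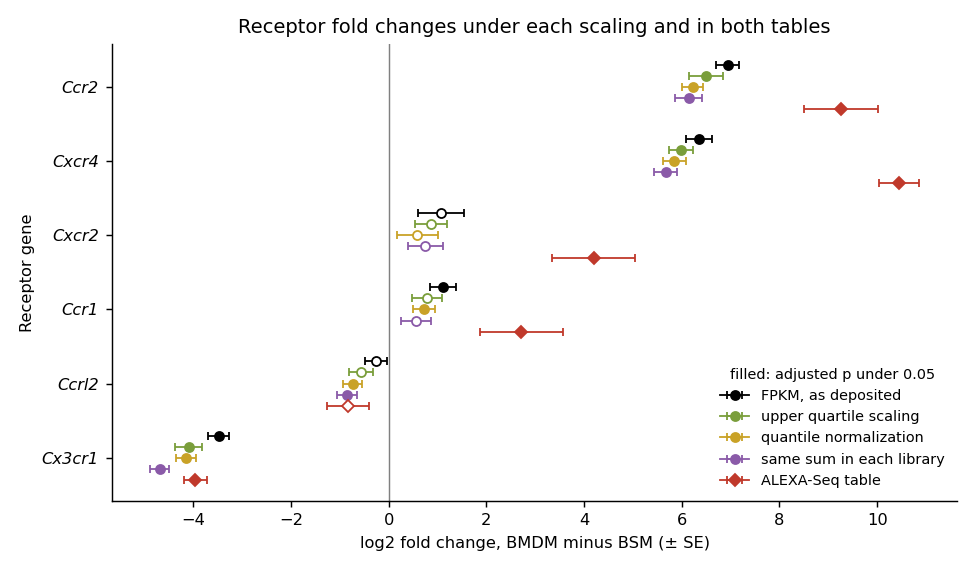
Log2 fold change, BMDM minus BSM, with its SE for the 6 receptors with an FPKM of at least 1 in a library, for the deposited FPKM, 3 further scalings of it and the ALEXA-Seq table; filled symbols passed an adjusted p of 0.05. Ccr2, Cxcr4 and Cx3cr1 keep their direction and stay filled in all 5, while Cxcr2, Ccr1 and Ccrl2 are filled in some only.

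Beyond these 8, the other family members described here gave few values to test. Of 16 further chemokine receptor genes, 1 passed the minimum of 3, through BSM alone. Cmklr1, the signalling receptor of chemerin, was at 0.293, 0.226 and 0.150 FPKM in BMDM and 13.2, 12.5 and 11.98 in BSM (log2 difference -3.47 ± 0.22 SE, limma, adjusted p = 1.76e-05). Every BSM library lay above every BMDM library. On chromosome 9, Ccr8, Ccr9, Cxcr6, Xcr1, Ccr1l1 and Ccr3 stayed under 1 FPKM in every library.

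Of 23 ligand genes, 6 passed the minimum of 3, Ccl12 through BSM alone and Ppbp through BMDM alone. Of the 6, Ccl6 and Ccl9 were higher in BMDM, Ccl12 was higher in BSM (-1.55 ± 0.38 SE, limma, adjusted p = 0.0101) and Ccl2, Ccl3 and Ppbp did not pass. The median log2 difference of the 6 was 0.43, where that of all tested genes was 0.81. With quantile normalization or equal sums, 2 were called higher in BMDM and 3 in BSM, the median was -0.10 or -0.20, and Ccl2 passed (-1.24, adjusted p = 0.0353, and -1.48, adjusted p = 0.0214). Ppbp passed with a pseudocount of 0.1 (3.78, adjusted p = 0.0163) and in the ALEXA-Seq table (4.16, adjusted p = 0.0148).

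Genes that carry the signal of these receptors were mostly measured. Of 39, 35 passed the minimum, 22 had the higher level in BMDM and 2 in BSM (45.3% and 9.22% of all tested genes did), 11 did not pass the test, and their median log2 difference was 1.08 beside 0.81 for all genes. This split depends on the scaling: scaling to equal sums gave 6 towards BMDM and 8 towards BSM, with a median of -0.07. Leaving out 1 library gave 15 to 23 towards BMDM and 1 to 3 towards BSM. The largest differences towards BMDM among those called in both tables were in Itgal, the alpha chain of the integrin LFA-1 (3.44 ± 0.22 SE, limma, adjusted p = 2.09e-05), Fgr, a Src family kinase (3.01 ± 0.27 SE, adjusted p = 8.76e-05), and Tln1, which links integrins to actin (2.77 ± 0.39 SE, adjusted p = 0.000871). Itgal was at 9.91, 9.94 and 10.4 FPKM in BMDM and at most 0.0582 in BSM. Itgal and Fgr passed the minimum through BMDM alone. The GTPase gene Cdc42 (2.31 ± 0.65 SE, adjusted p = 0.0187) followed, but it did not pass under any of the 3 further scalings, nor without any 1 of the BMDM libraries (adjusted p = 0.0593 to 0.0747). BSM replicate 1 held 10.1 FPKM of Cdc42 against 71.7 and 61.3 in the others, and without it the difference was 1.45 (adjusted p = 0.000687). Elmo1, a partner of Dock2 in the activation of Rac, and Arrb2, a beta-arrestin that ends receptor signalling, were higher in BSM, by log2 differences of -0.94 ± 0.25 (SE, limma, adjusted p = 0.0138) and -0.83 ± 0.25 (SE, limma, adjusted p = 0.0249). Arrb2 did not pass without BMDM replicate 1 (-0.72, adjusted p = 0.0800), BMDM replicate 3 (-0.78, adjusted p = 0.0954) or BSM replicate 2 (-0.86, adjusted p = 0.0617).

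The genes with the pattern nearest to each receptor were sought by Euclidean distance of log2(FPKM + 1) over the 6 libraries, as a description. For Cx3cr1 the nearest was Ptgs1, the gene of cyclooxygenase-1, at a distance of 0.28, with 5.93, 6.60 and 5.77 FPKM in BMDM and 88.9, 78.0 and 73.6 in BSM. The gene 5033414D02Rik followed at 1.01. For Ccr2 they were Ahnak, Mki67, a marker of cycling cells, and fibronectin (Fn1), at 0.48, 0.75 and 0.79. For Cxcr4 they were Emb, Ifitm2 and Oas3, at 0.51, 0.67 and 0.70. For Cxcr2 they were E230008N13Rik, the granule gene Ltf and Mip, at 0.16, 0.31 and 0.32, each with its highest value in BMDM replicate 2.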

How the data were processed

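RNA-Seq libraries of BMDM and BSM (3 each) were analysed. The authors aligned reads with TopHat 1.3.1 and Bowtie 0.12.7 to mm9 and deposited FPKM from Cufflinks 1.0.3, per the submitters' processing notes, which also name CASAVA 1.7.0. The authors also deposited an ALEXA-Seq signal for each gene on a linear scale. Its normalization is not given in the sources used here. The study lists mapped reads per library, but the tables hold no reads per gene, and Cufflinks values are model estimates, so no interval for counting error was made. Starts in the files count from 0 and are printed from 1. The labels and the study's RNA quality sheet list both sexes.

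Groups were compared with limma 3.58.1 in R 4.3.3 (eBayes with a trend) on log2(FPKM + 1), for the 6364 genes that reached 3 FPKM in any library, with Benjamini-Hochberg adjustment over all of them, at 0.05. The same number of ALEXA-Seq genes was tested likewise. Lower minimums were used for the rarer receptors. The test was checked on simulated data. Samples were not treated as paired by replicate number in the main comparison. Alternatives were another pseudocount, 3 scalings, no trend, library weights, a replicate block and leaving out each library. From each list, up to 4 genes a direction called in both tables were named, beside the ligands of the members and up to 3 nearest genes, except those not reported here. The members and lists were chosen with earlier results of these data known. Some genes of the lists and of the nearest genes are not reported here. Promoter windows were read from RefSeq, and copies were sought with blastn 2.17.0 and alignments made with Biopython 1.88.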

Additional observations from a re-analysis of the deposited data

How the results depend on the processing

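Cx3cr1, Ccr2 and Cxcr4 kept their direction and their call in all 17 alternatives each. Leaving out 1 library gave log2 differences of -3.57 to -3.38 for Cx3cr1, 6.79 to 7.03 for Ccr2 and 6.19 to 6.56 for Cxcr4. The difference of the ratio of Cx3cr1 to Ccr2 was 10.17 to 10.57 without 1 library, 12.64 with a pseudocount of 0.1 and 13.22 in the ALEXA-Seq table. Its direction could not reverse, because each gene separated the groups, in opposite directions, in both tables. Cxcr2 passed in 5 of 17 alternatives, Ccr1 lost its call in 2 of 15 and Ccrl2 gained one in 2 of 15. The 5 include leaving out BMDM replicate 2, the library through which alone Cxcr2 entered the main FPKM comparison. Cxcr3, at traces, reversed to -0.0035 with upper quartile scaling, -0.0066 with equal sums and was -0.0032 to 0.021 without 1 library, negative without BMDM replicate 2. Ccl2 reversed to 0.049 and Cxcl12 to 0.046 with library weights, and Cxcl12 was -0.58 to 0.036 without 1 library, positive without BSM replicate 1.

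The number of genes called was 3470 with FPKM, 2883 higher in BMDM and 587 higher in BSM. The split was 1378 and 1227 with quantile normalization, 1303 and 769 with upper quartile scaling (2072 in all) and 973 and 1582 with equal sums, and library weights gave 881 higher in BSM. Leaving out 1 library gave 2498 to 3932 in all, 2037 to 3194 higher in BMDM and 461 to 738 higher in BSM. The ALEXA-Seq table gave 3050, as 2359 and 691. There the split was 1439 and 1349 with quantile normalization, 1064 and 757 with upper quartile scaling (1821 in all), 845 and 1926 with equal sums and 4018 and 1344 with library weights (5362 in all), and 1050 were higher in BSM among 12728 genes. Leaving out 1 library gave 1971 (without BMDM replicate 3) to 3984 in all, 1452 to 3082 higher in BMDM and 519 to 902 higher in BSM. The cause of these shifts was not tested.

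Of the 4 receptors that reached 3 FPKM, 2 were called higher in BMDM (45.3% of all genes tested were), and 2 to 3 without 1 library. Ccr2 and Cxcr4, the 2 called, reached it through BMDM alone, so their number is no support for a difference of the family. The 3 came without BMDM replicate 2, when Cxcr2 passed although only that library had taken it past the minimum. In the ALEXA-Seq table with 12728 genes, 4 receptors were called higher in BMDM (Ccr2, Cxcr4, Cxcr2 and Ccr1). Of all 12728 genes, 2941 were called in that direction. Genes entered by their highest value in any library, which for these 4 receptors was in BMDM, so their number is no support for a difference of the family. Ccr1 never reached 3 FPKM, so these 4 are not the 4 above. Cx3cr1 and Ccrl2 were also tested there: Cx3cr1 was called higher in BSM and Ccrl2 was not called. The mean share in BMDM moved in the ALEXA-Seq table to 3.30% for Cx3cr1, 0.521% for Ccr1, 49.6% for Ccr2 and 45.7% for Cxcr4, and in BSM to 0.810% for Ccrl2. With the replicate block, 3471 genes were called with FPKM, and no receptor changed its call, while the ligand gene Ccl3 passed (adjusted p = 0.0343). Libraries of equal number correlated at -0.0195, -0.00836 and 0.134 in their deviations from the group means. These values cannot show whether libraries of equal number came from the same mice. The labels give libraries of equal number the same sex. The tables give no reads per gene, so no counting error is given for the traces of Ccr2 and Cxcr4 in BSM.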
